A study of Mus musculus with 2 samples.

Results

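The 7 genes described here encode the interleukin-1 (IL-1) agonists Il1a, Il1b and their relative Il18, the antagonist Il1rn, the decoy receptor Il1r2, and the signaling receptor Il1r1 with its accessory chain Il1rap. They were chosen by name from the 32285 genes listed in the count matrices, by a rule that uses no measured value, although earlier results of these data were known when the list was made. The cells came from 4T1 mammary carcinomas grown in BALB/c mice, and GR1+ cells were taken from the dissociated tumors by positive selection on magnetic beads and profiled by 10x Genomics single-cell RNA sequencing. The 4T1P group held non-responding tumors of the parental line, and the 4T1M group held tumors of a clone that was derived from the same line by carcinogen mutagenesis and that responds to anti-PD1. Each group was a single library of pooled mice, 5 per library by the series description and fewer by the published legend. The labels give an age of 6 to 8 weeks, whereas the methods name a somewhat older range for orthotopic 4T1 tumors. No treatment is named in the labels of either group. With 1 library per condition no test was possible. Every interval below is an exact 95% interval, apart from a normal approximation named where it is used, and every limit for a count of 0 is a floor of 3 counts. Both cover counting error only, not the spread between mice or tumors. Mutagenized clone, tumor, pool and library cannot be told apart.

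IL-1α and IL-1β bind the same receptor, IL1R1, which pairs with IL1RAP and signals through MyD88 and the IRAK kinases to NF-kB. IL-1RA, the product of Il1rn, occupies that receptor without signaling, and IL1R2 captures the agonists but lacks a signaling domain. IL-1β and IL-18 are made as precursors that inflammasome caspases cleave, whereas IL-1α is active in its precursor form, and all of these steps lie beyond what a transcript count measures. Neutrophils and macrophages are known sources of IL-1 in inflamed tissue and in tumors.

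After filtering for 500 to 5000 detected genes and at most 10% mitochondrial counts, 1726 of 2947 barcodes remained in 4T1P and 3461 of 5004 in 4T1M. Neutrophils were defined by S100a8 plus S100a9 at 1.5% or more of a cell's unique molecular identifiers (UMIs) with little C1q and Apoe, and macrophages by low S100a8 and S100a9 with at least 0.3% of UMIs in a sum of C1q, Apoe, Csf1r, Cd68 and Fn1. This gave 612 neutrophils and 798 macrophages in 4T1P, and 1686 neutrophils and 976 macrophages in 4T1M. Neutrophils made up 35.5% of the retained cells in 4T1P and 48.7% in 4T1M. Median depth was similar between the libraries within a class, at 3054.5 and 2957.5 UMIs per neutrophil and 9727 and 9213.5 per macrophage. Among markers that the gates did not use, Ly6g, which encodes the granulocytic GR1 antigen, stood at 308 CPM, the gene's UMIs scaled to the same fixed total of UMIs in every class, in 4T1P neutrophils and 230 CPM in 4T1M neutrophils, and at 0.342 and 1.28 CPM in the macrophages. Ly6c2, which encodes the monocytic GR1 antigen, stood at 3.76 CPM in 4T1P macrophages and 28.0 CPM in 4T1M macrophages, so that the macrophages of a GR1+ isolate carried little RNA of either antigen. The libraries shared 3 retained barcodes.

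Il1a, Il1b and Il1rn lie on mouse chromosome 2 of GRCm38. Il1a (ENSMUSG00000027399) spans 129299610 to 129309972 and Il1b (ENSMUSG00000027398) spans 129364570 to 129371139, both on the minus strand, and Il1rn (ENSMUSG00000026981) spans 24336853 to 24351494 on the plus strand. Il1r1 (ENSMUSG00000026072) lies on chromosome 1 from 40225080 to 40317257, close to Il1r2 (ENSMUSG00000026073) from 40074079 to 40125231. Il1rap (ENSMUSG00000022514) spans 26581704 to 26730117 on chromosome 16 and Il18 (ENSMUSG00000039217) 50554827 to 50581840 on chromosome 9. Il1a, Il1b, Il1r2, Il1rap and Il18 each overlap a gene on the opposite strand, and the strand setting of the counting is not given in the sources used here, so reads of the overlapping partners may not be separable. Il1r1 and Il1r2 also overlap a predicted gene on their own strand.

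The 250 bases upstream of the annotated starts of Il1a, Il1b and Il1rn are shown because these 3 genes encode the opposing ligands of 1 receptor and enter every ratio given here. The sequences are RefSeq GRCm38.p6, 5′ to 3′ on the gene's strand, with motif matches in capitals. They cover chr2:129309973-129310222 for Il1a, chr2:129371140-129371389 for Il1b and chr2:24336610-24336859 for the most upstream of 3 Il1rn starts.
Il1a: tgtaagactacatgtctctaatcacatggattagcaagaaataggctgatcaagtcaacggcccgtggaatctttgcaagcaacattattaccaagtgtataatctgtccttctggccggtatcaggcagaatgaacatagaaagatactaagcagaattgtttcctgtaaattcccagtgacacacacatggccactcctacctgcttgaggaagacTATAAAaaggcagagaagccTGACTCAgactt
Il1b: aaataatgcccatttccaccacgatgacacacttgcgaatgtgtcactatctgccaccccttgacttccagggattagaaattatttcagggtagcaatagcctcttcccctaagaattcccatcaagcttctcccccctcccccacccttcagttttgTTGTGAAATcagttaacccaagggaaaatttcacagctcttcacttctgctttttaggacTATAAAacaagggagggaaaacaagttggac
Il1rn: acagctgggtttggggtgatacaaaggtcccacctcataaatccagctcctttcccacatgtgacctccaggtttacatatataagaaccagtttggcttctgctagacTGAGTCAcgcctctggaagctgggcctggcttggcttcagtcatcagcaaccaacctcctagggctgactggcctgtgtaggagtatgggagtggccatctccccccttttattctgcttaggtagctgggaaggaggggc
The motifs were searched on both strands, with N as any base. These were the AP-1 motif TGANTCA, the C/EBP motif TTNNGNAAT, the TATA box TATAAA and an interferon response motif of GAAA, any 2 bases and GAAA. The Il1a window held an AP-1 match 12 to 6 bases before the start and a TATA box at 32 to 27, and the Il1b window held a C/EBP match at 91 to 83 and a TATA box at 31 to 26. The Il1rn window shown held an AP-1 match at 141 to 135 and no TATA box. The window of the most downstream Il1rn start, not shown, held a C/EBP match at 64 to 56. Over 32817 promoter windows of the same length, 6.75% held the AP-1 letters, 10.2% the C/EBP letters, 12.4% the TATA box and 2.97% the interferon letters. The windows of Il1r2 and Il1rap held none of the 4. A match describes letters only, and which start these cells used was not measured.

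Il1b was the most abundant member in both classes and both libraries. Since each UMI stands for 1 molecule, levels of different genes are compared here as CPM without division by length. In neutrophils Il1b stood at 9716 CPM (9594 to 9839) in 4T1P and 10068 CPM (9991 to 10145) in 4T1M, rank 8 among all genes in each library. Il1rn followed in 4T1P at 1051 CPM, then Il1r2 at 934 CPM and Il1a at 644 CPM, with no overlap between the intervals of these neighbors. In 4T1M the order of these changed, with Il1a at 1620 CPM above Il1rn at 1399 CPM and Il1r2 at 879 CPM. Il1rap stood at 155 and 165 CPM and Il18 at 19.6 and 22.0 CPM. The signaling receptor Il1r1 had 0 UMIs in 4T1P neutrophils, which allows up to 1.20 CPM, taken as the level that 3 UMIs would give, and 1 UMI in 4T1M neutrophils. The neutrophils thus held RNA of the ligands, the antagonist, the decoy and the accessory chain, whereas RNA of the signaling receptor was not detectable or nearly so at this depth.

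In macrophages the members had the same order in 4T1M as in neutrophils, and in 4T1P Il1a stood above Il1rn. Il1b stood at 3713 CPM in 4T1P and 4611 CPM in 4T1M, and Il1a at 1553 and 1984 CPM. Il1rn stood at 366 and 550 CPM and Il1r2 at 55.5 and 103 CPM. Il1rap, Il18 and Il1r1 were scarce, with Il1rap at 12.8 and 18.1 CPM, Il18 at 14.3 and 16.9 CPM and Il1r1 at 8 and 19 UMIs in all. The intervals of Il1rap and Il18 overlapped in each library, so their order in macrophages is not resolved.

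**Figure D1:**
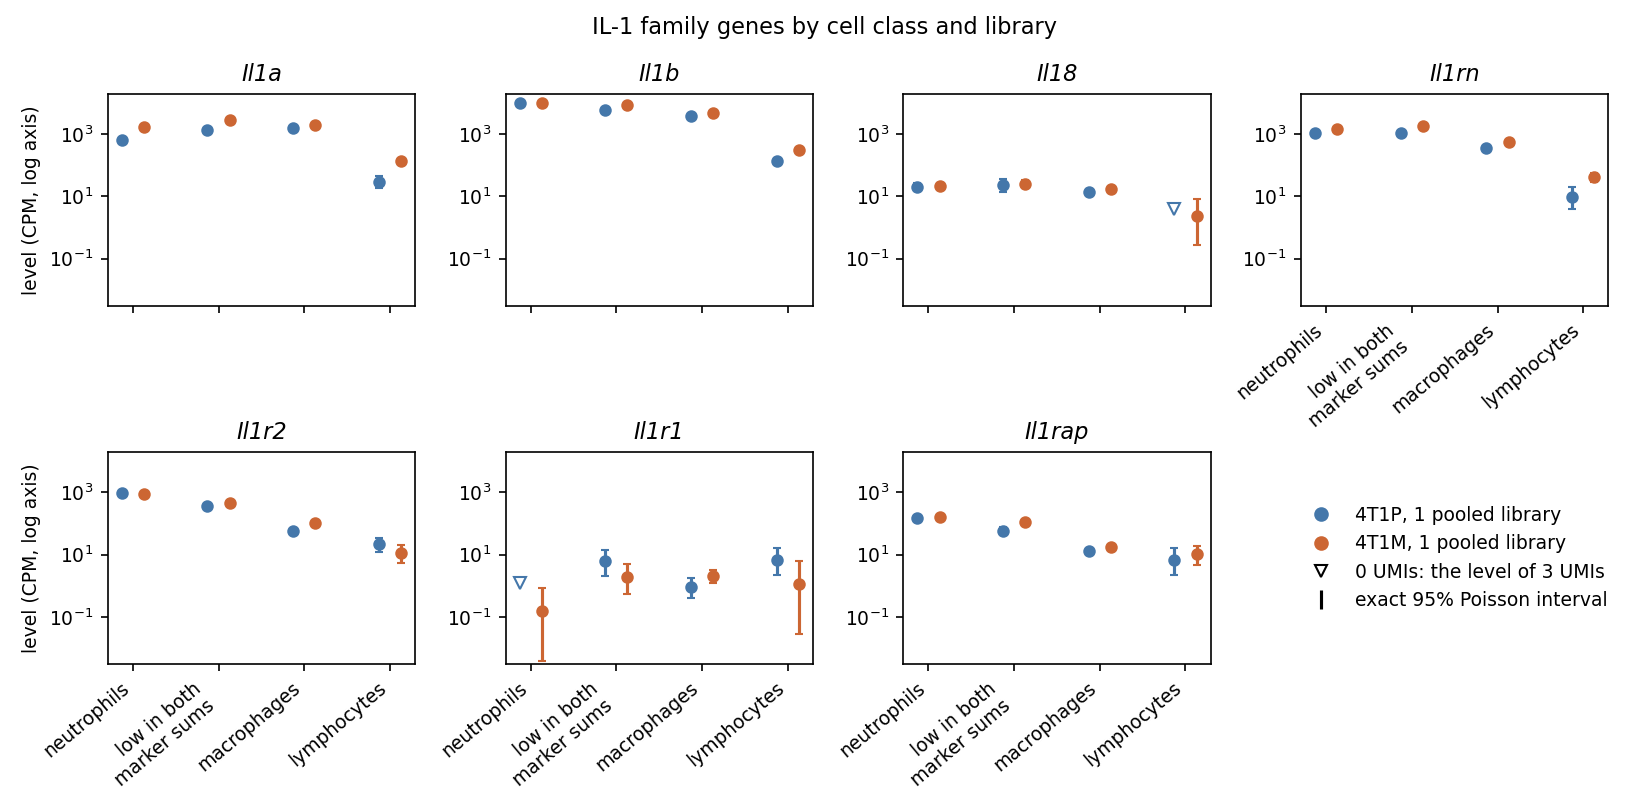
Level of each of the 7 genes in CPM on a log axis in neutrophils, in retained cells low in both marker sums, in macrophages and in lymphocytes, with 4T1P in blue and 4T1M in orange and exact 95% Poisson intervals as bars. Il1b lies at 9716 and 10068 CPM in neutrophils, Il1a in neutrophils is at 644 CPM in 4T1P and 1620 CPM in 4T1M, and the Il1r1 level lies under 10 CPM in every class shown.

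Compared with macrophages, neutrophils were, per UMI of the class, richest in the decoy and the accessory chain. Il1r2 was 16.8-fold higher in neutrophils than in macrophages in 4T1P and 8.57-fold higher in 4T1M. Il1rap was 12.1-fold and 9.14-fold higher, Il1rn 2.88-fold and 2.55-fold, and Il1b 2.62-fold and 2.18-fold. Il1a went the other way and was 2.41-fold higher in macrophages in 4T1P and 1.22-fold higher in 4T1M. Thus 4 of 6 members with at least 10 UMIs were at least 1.5-fold higher in neutrophils in 4T1P and 4 of 7 in 4T1M, where 16.5% and 17.5% of all genes were. A single member was at least 1.5-fold lower in each library, Il1a in 4T1P and Il1r1 in 4T1M (1 UMI against 19), where 62.1% and 60.4% of all genes were. The median log2 ratio of neutrophils over macrophages was 1.46 for the members against -1.13 for all genes in 4T1P, and 1.13 against -1.03 in 4T1M. All these folds are per UMI of a class, not per cell, and a macrophage held more UMIs at the median depths given above. In 4T1P, Il1b had 24318 UMIs in 612 neutrophils and 32551 UMIs in 798 macrophages. In the same cells Il1rn had 2631 and 3205 UMIs, Il1r2 2337 and 487, and Il1a 1612 and 13618. In 4T1M, Il1b had 66246 UMIs in 1686 neutrophils and 43086 UMIs in 976 macrophages.

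Il1a was the member that differed most between the tumors in neutrophils. It had 1612 UMIs in 4T1P and 10661 UMIs in 4T1M, so its level was 2.52-fold higher in 4T1M, a log2 ratio of 1.33 (1.26 to 1.41). Il1b, its partner agonist, differed by a log2 ratio of only 0.05 (0.03 to 0.07). The Il1b to Il1a ratio of UMIs in neutrophils was therefore 15.1 (14.3 to 15.9) in 4T1P and 6.21 (6.09 to 6.34) in 4T1M. Macrophages held the agonists in nearly the same proportion in both libraries, at 2.39 Il1b UMIs per Il1a UMI in 4T1P and 2.32 in 4T1M, with intervals of 2.34 to 2.44 and 2.28 to 2.36.

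Both agonists were modestly higher in 4T1M macrophages. Il1a had a log2 ratio of 0.35 (0.32 to 0.39) and Il1b of 0.31 (0.29 to 0.33), neither past 1.5-fold. With cells limited to 5% mitochondrial UMIs the Il1b ratio in macrophages was 0.07. Il18 had 49 and 145 UMIs in neutrophils and 125 and 158 UMIs in macrophages. Its log2 ratios of 0.17 (-0.31 to 0.67) and 0.25 (-0.10 to 0.60) include 0, so these counts cannot show a difference.

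The antagonist was higher in 4T1M in both classes. Il1rn stood at 366 CPM in 4T1P macrophages and 550 CPM in 4T1M macrophages, a log2 ratio of 0.59 (0.52 to 0.65) or 1.504-fold, which lies on the threshold. In neutrophils its log2 ratio was 0.41 (0.35 to 0.48). The decoy Il1r2 differed between the classes in its direction, with a log2 ratio of -0.09 (-0.16 to -0.02) in neutrophils and 0.88 (0.73 to 1.04), or 1.85-fold, in macrophages. The difference between the classes was not tested.

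Neutrophil markers moved with Il1r2 in the macrophages. The summed level of all 10 neutrophil markers, each detected in both libraries, was 732 CPM in 4T1P macrophages and 1352 CPM in 4T1M macrophages, and S100a8 was 237 and 465 CPM. Per 100 UMIs of S100a8, macrophages held 23.5 Il1r2 UMIs in 4T1P and 22.0 in 4T1M and neutrophils 1.41 and 1.57, a difference that the gates on S100a8 and S100a9 help to set. The part of neutrophil RNA in the Il1r2 level of macrophages was not tested. The summed level of all 13 macrophage markers in neutrophils was 724 and 834 CPM.

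The accessory chain was higher in 4T1M macrophages, within 1.5-fold, but in each library its interval overlapped that of lymphocytes. Its CPM in macrophages was 12.8 (10.5 to 15.4) in 4T1P and 18.1 (15.5 to 21.0) in 4T1M. In lymphocytes it was 6.73 (2.19 to 15.7) and 10.2 (4.67 to 19.4). Il1rap had a log2 ratio of 0.10 (-0.07 to 0.27) in neutrophils and 0.50 (0.15 to 0.86) in macrophages. The macrophage value was 0.06 under stricter gates and 1.03, past 1.5-fold, with every cell weighted equally. Il1r1 in macrophages had a log2 ratio of 1.16 (-0.10 to 2.56) on 8 and 19 UMIs. Without the upper limit on detected genes its direction turned, with a log2 ratio of -0.83. No direction is given for Il1r1.

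Counted over the list, 1 of 6 members with at least 10 UMIs was at least 1.5-fold higher in 4T1M neutrophils, Il1a, where 14.3% of 9994 genes were, and 0 were lower, where 9.93% of genes were. In macrophages 3 of 7 members, Il1rn, Il1r2 and Il1r1, were at least 1.5-fold higher, where 7.37% of 12352 genes were, and 0 were lower, where 7.93% were. The median log2 ratio of the members was 0.13 in neutrophils and 0.50 in macrophages, against 0.03 and -0.03 for all genes. The macrophage count rests in part on Il1rn at the threshold and on the few UMIs of Il1r1, and was 1 with the 5% mitochondrial limit. With 8 and 19 UMIs, Il1r1 passed the limit of 10 UMIs only through 4T1M. Of the monocyte genes, Ly6c2 moved in the same direction in these macrophages, from 33 to 262 UMIs. Ccr2, the more abundant, went the other way, with 4400 UMIs (502 CPM) in 4T1P and 3872 UMIs (414 CPM) in 4T1M. The part of such cells was not tested.

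**Figure D2:**
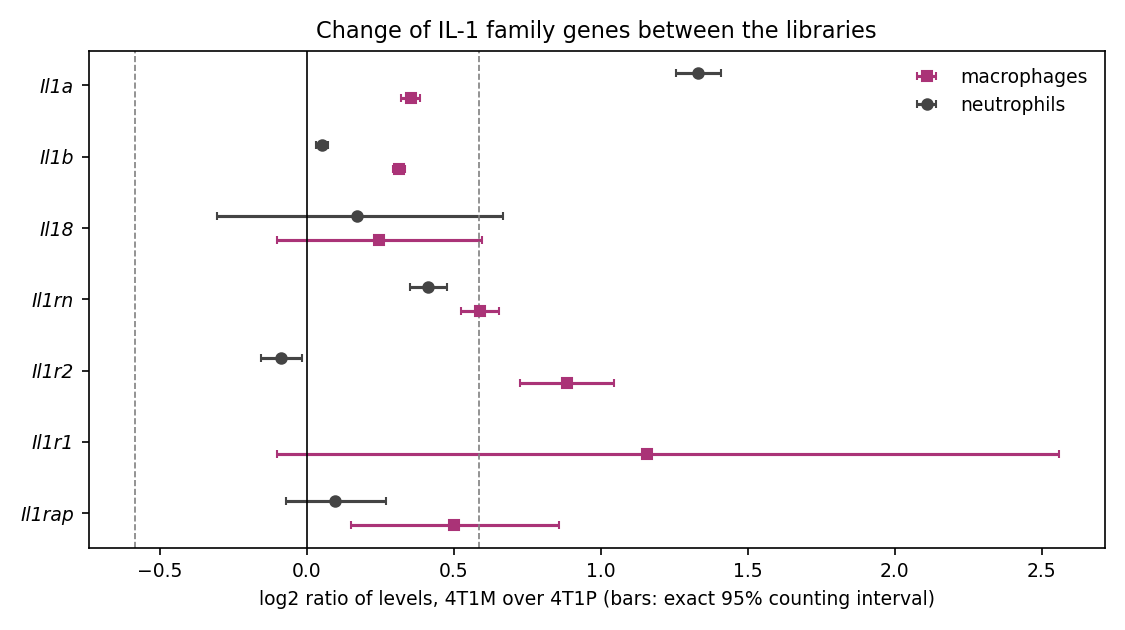
Log2 ratio of the level in 4T1M over that in 4T1P for each gene in neutrophils (gray circles) and macrophages (purple squares), with exact 95% counting intervals and dashed lines at 1.5-fold either way. Il1a in neutrophils lies at 1.33, apart from the other members of that class, Il1r2 lies on opposite sides of 0 in the classes, and Il1r1 is shown for macrophages only because neutrophils held 0 and 1 UMIs.

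The ratio of agonists to antagonist was lower in 4T1M in both classes. In neutrophils there were 9.86 (9.47 to 10.3) Il1a plus Il1b UMIs per Il1rn UMI in 4T1P and 8.35 (8.17 to 8.54) in 4T1M. In macrophages the ratio was 14.4 (13.9 to 14.9) in 4T1P and 11.999 (11.7 to 12.3) in 4T1M. Over all retained cells it was 11.7 (11.4 to 11.95) and 8.997 (8.86 to 9.14), a value that mixes the shares of the classes with the ratio inside each. The part of either was not tested. The intervals of the libraries did not overlap in any of these 3 comparisons, although the spread between mice was not measured.

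Within neutrophils, the agonists differed in opposite directions relative to the antagonist. The Il1a to Il1rn ratio was 0.613 (0.576 to 0.652) in 4T1P and 1.16 (1.13 to 1.19) in 4T1M, and the Il1b to Il1rn ratio was 9.24 (8.88 to 9.63) and 7.20 (7.04 to 7.35). Relative to the antagonist, Il1a was thus higher in 4T1M and Il1b, by far the more abundant agonist, was lower. In macrophages both ratios were lower in 4T1M, at 4.25 and 3.61 for Il1a and 10.2 and 8.39 for Il1b.

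With the decoy counted beside the antagonist, the neutrophil ratios of the libraries overlapped. Agonist UMIs per Il1rn plus Il1r2 UMI were 5.22 (5.06 to 5.38) in 4T1P neutrophils and 5.13 (5.04 to 5.22) in 4T1M neutrophils. The log2 ratio of these was -0.02 (-0.08 to 0.03 by a normal approximation). In macrophages, where Il1r2 was scarce, the ratio was 12.5 (12.1 to 12.9) and 10.1 (9.85 to 10.4). The decoy to antagonist ratio itself was 0.888 and 0.628 in neutrophils and 0.152 and 0.187 in macrophages.

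**Figure D3:**
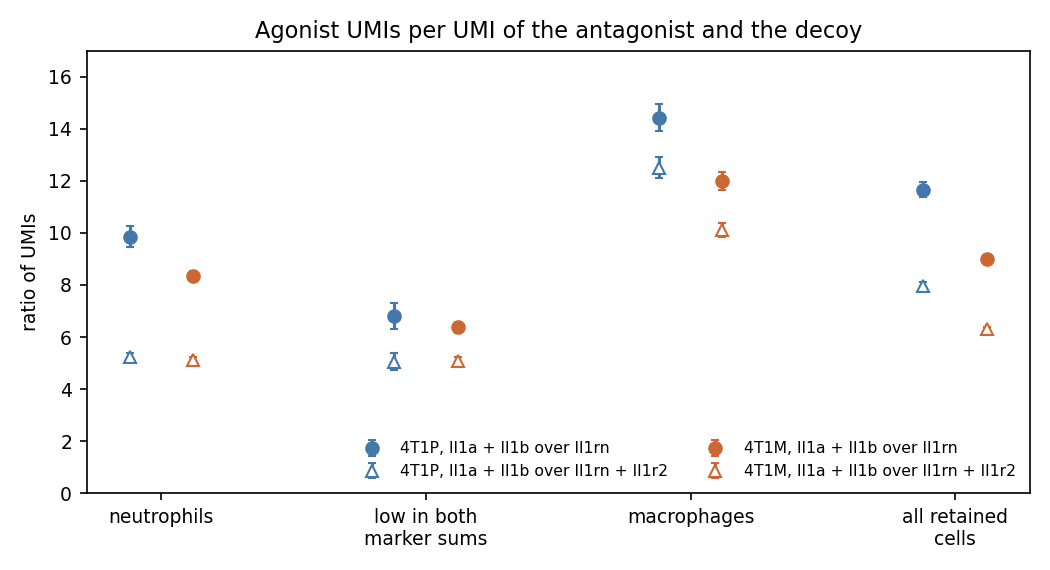
UMIs of Il1a plus Il1b per UMI of Il1rn (filled circles) and per UMI of Il1rn plus Il1r2 (open triangles) in 4 sets of cells, with 4T1P in blue, 4T1M in orange and exact 95% intervals as bars. Macrophages have the highest ratios, 14.4 and 11.999 per Il1rn UMI, and the neutrophil values with the decoy included, 5.22 and 5.13, overlap.

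The cells that held the RNA differed between the tumors. Neutrophils held 9.76% of the Il1a UMIs of retained cells in 4T1P and 29.7% in 4T1M, and macrophages 82.5% and 51.6%. For Il1b the neutrophil part was 39.0% and 51.1%, and for Il1rn 38.9% and 50.003%. Il1r2 was mostly neutrophil RNA in both, at 73.8% and 73.1%. Over the same libraries the neutrophil share of retained cells was 35.5% and 48.7% and that of macrophages 46.2% and 28.2%. Of the UMIs of retained cells, neutrophils held 19.3% and 34.1% and macrophages 67.7% and 48.4%. The neutrophil part of Il1a, Il1b and Il1rn moved in the direction of these shares. Levels per neutrophil UMI also differed, 2.52-fold for Il1a, 1.33-fold for Il1rn and 1.04-fold for Il1b. How much each contributed was not tested.

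**Figure D4:**
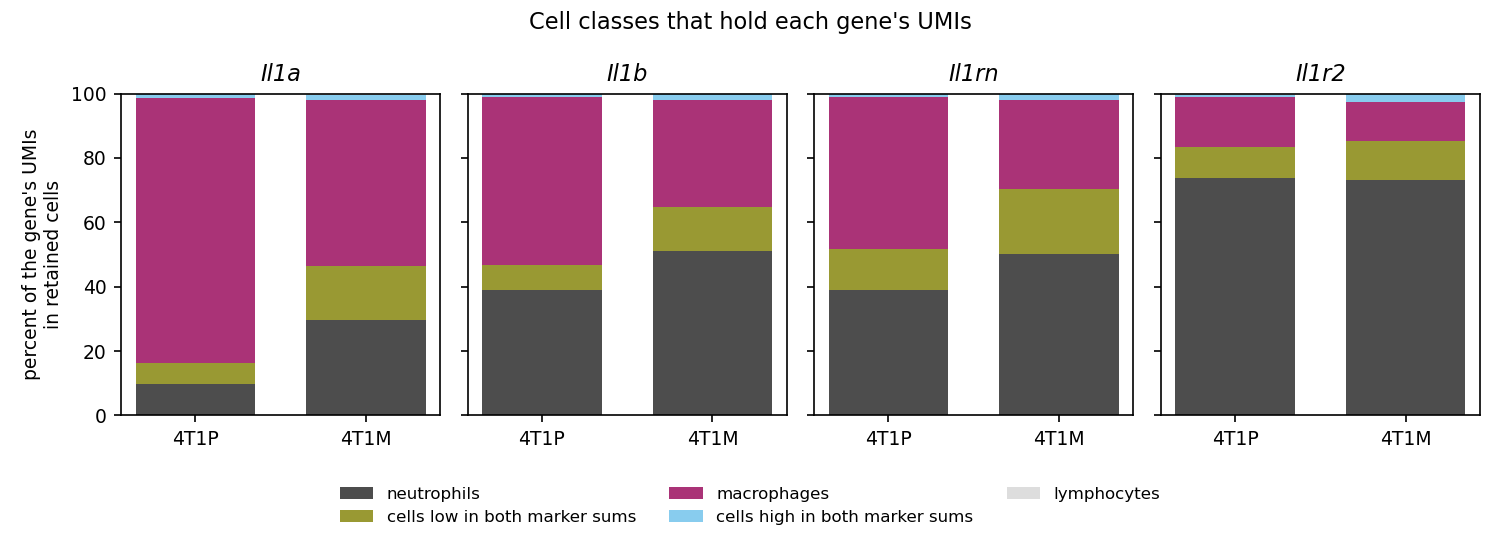
Percent of each gene's UMIs in retained cells that lay in neutrophils, cells low in both marker sums, macrophages, cells high in both marker sums and lymphocytes, as stacked bars for each library and 4 genes. Macrophages hold 82.5% of the Il1a UMIs in 4T1P and 51.6% in 4T1M, and neutrophils hold 73.8% and 73.1% of the Il1r2 UMIs.

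Shares of cells were compared after thinning each cell to 1000 UMIs. An Il1a UMI was found in 28.1% of 612 neutrophils in 4T1P (24.6% to 31.8%) and in 48.4% of 1682 in 4T1M (46.0% to 50.8%), against 46.4% and 64.8% before thinning. Lymphocytes, which served as the background for free RNA and had median depths of 5125 and 5815 UMIs, held an Il1a UMI in 2.65% and 2.94% of 113 and 136 thinned cells. Il1a was therefore found in more neutrophils of 4T1M and well above background in both libraries. Dendritic cell markers summed to 735 and 807 CPM in the lymphocyte class, against 49.7 and 44.9 CPM over all retained cells. Ccr7 made up 394 and 560 CPM of the lymphocyte sums. Whether cells of the lymphocyte class make IL-1 RNA themselves was not tested.

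Il1b was found in most neutrophils, at 88.1% in 4T1P and 94.0% in 4T1M, with 5.31% and 8.82% of lymphocytes as background. Il1rn was found in 52.6% and 63.3% of neutrophils (background 0.885% and 1.47%) and Il1r2 in 50.8% and 48.2% (background 2.65% and 0.735%). Il1rap was found in 17.2% and 16.0% (background 0% and 1.47%) and Il18 in 2.78% and 2.38% (background 0% and 0.735%). A background of 0 of 113 lymphocytes in 4T1P allows up to 2.65%. The Il18 background in 4T1M had an interval that reached 4.03%. The share of Il18 in neutrophils thus cannot be told from background. Il1r1 was found in 0 of 612 and 0 of 1682 neutrophils, which allows up to 0.490% and 0.178% of cells with a UMI, taken as 3 cells of the total. Apart from Il1a, Il1b and Il1rn, the intervals of the libraries overlapped for every member. How many of all genes had intervals apart is not given here, so this is no trait of the members.

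In macrophages Il1a was found in 49.2% of 772 thinned cells in 4T1P and 58.4% of 939 in 4T1M, Il1b in 62.2% and 72.6%, and Il1rn in 24.4% and 33.0%. Il1r2 was found in 3.11% and 7.99%. The 4T1P share of Il1r2 was close to the 2.65% of lymphocytes and cannot be told from background by the share alone, whereas the 4T1M share lay above the 0.735% of its lymphocytes. Il1rap was found in 0.907% and 1.70% of macrophages and Il18 in 1.04% and 2.45%. Their intervals overlapped those of lymphocytes in both libraries, so neither gene can be told from background by the share alone.

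Both agonists were found in a larger share of the neutrophils in 4T1M. A UMI of both Il1a and Il1b was found in 26.5% of thinned 4T1P neutrophils and 47.3% of 4T1M neutrophils, whereas Il1a without Il1b was rare, at 1.63% and 1.07%. Since Il1b was in 88.1% and 94.0% of neutrophils, these joint shares lie close to the Il1a shares of 28.1% and 48.4%. Whether the agonists met beyond what the single shares give was not tested. Neutrophils with an agonist but without Il1rn made up 43.0% and 34.3%, and those with an agonist but neither Il1rn nor Il1r2 made up 19.0% and 16.1%. In macrophages that last share was 49.9% and 48.9%. A cell in which a gene was not drawn among 1000 UMIs may still hold its RNA.

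Il1a RNA was concentrated in fewer neutrophils than Il1b RNA. The 10% of neutrophils with most Il1a UMIs held 67.4% of its thinned UMIs in 4T1P and 52.1% in 4T1M, and the 10% with most Il1b UMIs held 32.3% and 28.9%. Such a share is higher for a scarcer gene. Il1a had 0.672 and 1.60 thinned UMIs per neutrophil and Il1b 11.5 and 10.8. Concentration and level were therefore not separated, between the genes or between the libraries. Over single cells, Il1a and Il1b were weakly correlated in neutrophils (Pearson's r of 0.14 over 612 and 0.20 over 1682 cells, on log2 of thinned UMIs plus 1) and more closely in macrophages (0.46 over 772 and 0.51 over 939 cells). Il1rn had an r of 0.24 and 0.26 with Il1a in neutrophils and of 0.00 and 0.08 with Il1b. These are descriptions over cells that share a library and a fixed depth.

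Neutrophils were next grouped by lists that hold no member. The NF-kB list had 11 genes, among them the feedback inhibitors Tnfaip3 and Nfkbia, which are also in the pathway list, and the targets Tnf and Icam1. The granule list had 8 genes of immature neutrophils such as Camp, Ngp and Ltf, and the interferon list had 12 genes such as Ifit1, Isg15 and Rsad2. Groups were set by UMIs of a list per 1000 thinned UMIs of the cell, and are ranges along a score rather than cell types. Intervals within these groups, and within the macrophage groups below, hold for a single draw. They do not cover a new draw of UMIs, which also regroups the cells. In 4T1P 64 of 612 and in 4T1M 157 of 1682 neutrophils lay at or 1 UMI under the upper NF-kB limit of 10. At the upper interferon limit of 3 there were 104 and 381 such cells, and at the upper granule limit of 10 there were 8 and 37.

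Il1a followed the NF-kB list more steeply than Il1b, Il1rn and Il1r2 did. In 4T1P it stood at 0.228 UMIs per 1000 in neutrophils with 0 to 2 list UMIs, 0.427 with 3 to 9 and 1.05 (0.930 to 1.17) with 10 or more. In 4T1M it stood at 0.187, 0.622 and 2.13 (2.05 to 2.22). The libraries overlapped in the lowest group and lay apart in the highest, where Il1a was higher in 4T1M. That group has no upper limit, and list UMIs within it were not compared between the libraries. The highest group also held more of the neutrophils in 4T1M, at 67.2% against 45.4%.

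Il1b and Il1rn followed the list less. Il1b stood at 9.77, 10.98 and 12.5 UMIs per 1000 in 4T1P and at 6.47, 8.89 and 12.1 in 4T1M, so the neutrophils with few NF-kB list UMIs held less Il1b in 4T1M than in 4T1P. Il1rn stood at 1.04, 0.991 and 1.63 in 4T1P and at 1.02, 1.03 and 1.93 in 4T1M, with a higher value in the highest group than in the others. Il1r2 stood between 0.763 and 1.09 in 4T1P and between 0.675 and 0.925 in 4T1M.

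Neutrophils with many granule UMIs held the least IL-1 RNA. Il1b went from 12.4 UMIs per 1000 in 4T1P cells with 0 to 1 granule UMIs to 3.63 (3.08 to 4.24) in the 43 cells with 10 or more, and from 11.3 to 4.77 (4.34 to 5.23) in 4T1M, where 96 cells lay in that group. Il1rn went from 1.41 to 0.465 and from 1.86 to 0.604. Il1a stood at 0.813 and 1.73 in the cells with fewest granule UMIs. Its values in the group with most, 0 and 0.656 (0.504 to 0.840, 63 UMIs), were 0.200 and 0.341 in another draw of 1000 UMIs per cell. The 4T1M value of that draw lay outside the interval, so the size of this difference is not settled. Il1r2 differed least, at 1.01 and 0.628 in 4T1P and 0.890 and 0.781 in 4T1M.

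**Figure D5:**
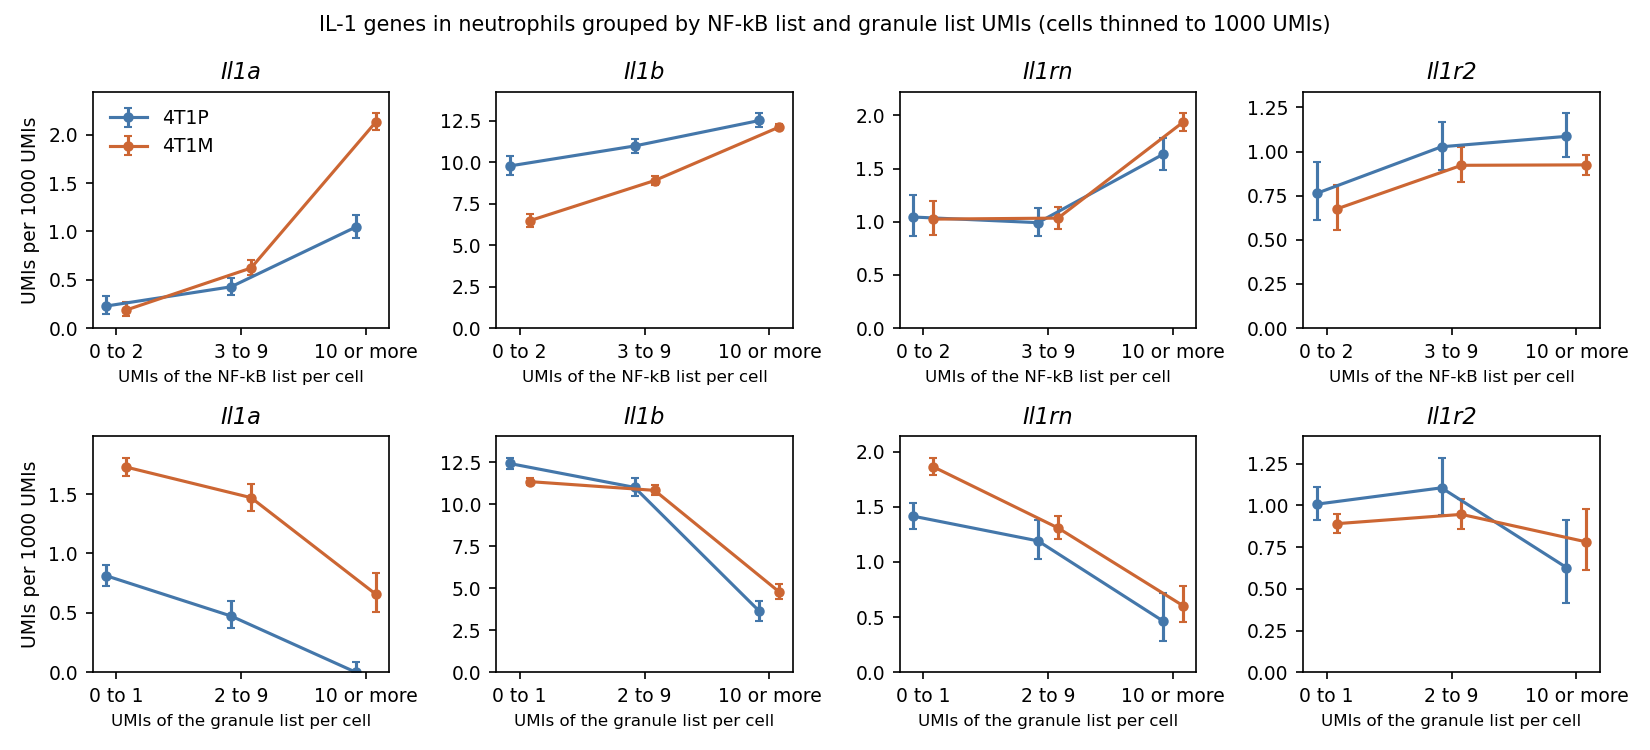
UMIs of Il1a, Il1b, Il1rn and Il1r2 per 1000 UMIs in neutrophils grouped by UMIs of the NF-kB list (upper row) and of the granule list (lower row), with 4T1P in blue, 4T1M in orange and exact 95% Poisson intervals as bars. Il1a reaches 2.13 in 4T1M neutrophils with 10 or more NF-kB list UMIs and 1.05 in those of 4T1P, and Il1b is at 3.63 and 4.77 in the neutrophils with most granule UMIs.

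Interferon list UMIs went with slightly more Il1b. Neutrophils with 3 or more such UMIs held 13.1 Il1b UMIs per 1000 in 4T1P against 10.0 in those with 0, and 12.3 against 9.10 in 4T1M. Il1a stood at 0.808 against 0.562 in 4T1P and 1.71 against 1.53 in 4T1M, so the difference between the libraries was larger than that along the list. Ly6e encodes a surface protein that interferon induces. In 4T1M neutrophils with a Ly6e UMI, Il1a stood at 2.10 (1.92 to 2.30) and Il1b at 13.4 (12.96 to 13.9), against 1.52 and 10.4 in neutrophils without one. In 4T1P only 33 neutrophils had a Ly6e UMI, and their Il1a value of 1.09 (0.764 to 1.51) was 0.464 in another draw, so no direction is given.

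Macrophages with resident markers held less of the agonists. Cells with a UMI of Lyve1, Cd163 or Folr2 held 1.27 Il1b UMIs per 1000 in 4T1P (1.05 to 1.51, 97 cells) against 3.52 in the others, and 2.05 (1.63 to 2.54, 40 cells) against 4.30 in 4T1M. Il1a stood at 0.784 against 1.27 and at 1.05 against 1.72. Since Il1rn differed less, with overlapping intervals, the agonist to antagonist ratio was 6.86 (4.63 to 10.5) against 12.9 (11.3 to 14.7) in 4T1P. In 4T1M it was 6.20 (3.85 to 10.5) against 11.5 (10.5 to 12.7).

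Macrophages were also grouped by monocyte genes, Arg1 and Cxcl9. Cells with a UMI of the monocyte genes Ly6c2 or Ccr2 held more Il1b, at 3.86 against 2.94 UMIs per 1000 in 4T1P and 4.76 against 3.97 in 4T1M. Cells with an Arg1 UMI, which encodes arginase 1, held more Il1a, at 1.33 against 1.01 and 1.88 against 1.46. Il1r2 in these cells was lower in 4T1M, at 0.0578 (0.0390 to 0.0825) against 0.181 (0.143 to 0.226), but not in 4T1P, at 0.0407 (0.0249 to 0.0629) against 0.0320 (0.0146 to 0.0608), where the intervals overlap. Cells with a UMI of the chemokine gene Cxcl9 made up 8.16% and 7.14% of macrophages, and their Il1a and Il1b intervals overlapped those of the other macrophages in both libraries.

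By correlation over thinned neutrophils, among 976 genes found in at least 10% of neutrophils of each library, the genes most like Il1a were the chemokine genes Ccl3 (r of 0.38 in 4T1P and 0.40 in 4T1M) and Cxcl2 (0.32 and 0.42) and the Bcl2 family gene Bcl2a1b (0.29 and 0.36). Bcl2a1b has near-identical paralogs that can share its reads, and it belongs to the NF-kB list. Those most like Il1b were Hdc, which encodes histidine decarboxylase (0.35 and 0.31), the kinase gene Pim1 (0.31 and 0.32) and Acod1, which encodes the enzyme that makes itaconate (0.30 and 0.32). For Il1rn they were Ccl3 (0.29 and 0.32), Il1a (0.24 and 0.26) and Cxcl2 (0.23 and 0.26). For Il1r2 the values were weak, and the first gene was Cebpb (0.17 and 0.16), which encodes a transcription factor of the C/EBP family. Il1b (0.19 and 0.15) and Hdc (0.20 and 0.15) came next, ranked by the lower of the libraries' values. Il1a and Il1rn thus had Ccl3 and Cxcl2 among their nearest 3 genes, and Il1b had neither.

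Of 55 other genes of the pathway, 46 had at least 10 UMIs in neutrophils, and 9 of these were at least 1.5-fold higher in 4T1M and 0 lower. The shares over all genes, given above, were 14.3% and 9.93%. The limit of 10 UMIs applied to both libraries together. Of the 9 genes, Il1rl2 (1 and 13 UMIs), Nlrc4 (1 and 13) and Panx1 (2 and 13) passed it only through 4T1M, where they were higher. The list's median log2 ratio was 0.31 against 0.03 for all genes, and 39 of the 46 lay above 0, where 5317 of 9994 genes did. The signaling part gave 3 of 24, namely the ubiquitin ligase gene Traf6 (18.0 CPM in 4T1P and 44.2 CPM in 4T1M), the NF-kB inhibitor gene Tnfaip3 (640 and 1217 CPM) and Peli1, whose product ubiquitinates IRAK proteins (73.9 and 111 CPM). Peli1, at 1.503-fold, lay on the threshold. Myd88, the adaptor, was within 1.5-fold at a log2 ratio of 0.19 (-0.07 to 0.46).

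Among the wider family, Il1f9, which encodes the agonist IL-36γ, stood at 364 CPM in 4T1P neutrophils and 555 CPM in 4T1M neutrophils, 1.52-fold and close to the threshold. The other calls of that part, 3 of 6, were Il1rl2, the IL-36 receptor gene, with 1 and 13 UMIs, and Il18r1, an IL-18 receptor gene, with 10 and 41 UMIs. Their counts were too low for the interval to leave 0. For processing and release 3 of 16 were called, the inflammasome sensor gene Nlrc4 with 1 and 13 UMIs, the channel gene Panx1 with 2 and 13 UMIs, and the ATP receptor gene P2rx7 with 15 and 68 UMIs, and the intervals of all 3 included 0. Nlrp3, the more abundant sensor, stood at 1140 and 1588 CPM, a log2 ratio of 0.48 (0.42 to 0.54). Casp1, which cleaves the precursors of IL-1β and IL-18, stood at 27.6 and 32.1 CPM, with a log2 ratio of 0.22 (-0.18 to 0.63).

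In macrophages 3 of 47 pathway genes with at least 10 UMIs were at least 1.5-fold higher in 4T1M and 1 lower, where 7.37% and 7.93% of all genes were, and their median log2 ratio was 0.06. Of the 47, 25 lay above 0 and 22 below, where 5548 and 6804 of 12352 genes did. Il1f9 stood at 5.59 and 12.8 CPM, a log2 ratio of 1.20 (0.71 to 1.71), while Il33 with 5 and 10 UMIs and Il1f6, which encodes IL-36α, with 5 and 9 UMIs had intervals that include 0. The lower gene was Prtn3, a serine protease gene, at 43.8 and 22.8 CPM.

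A last set of cells was low in both marker sums and had fewer than 3 UMIs in each lymphocyte marker list. It fell outside both gates and was rich in IL-1 RNA. It made up 11.1% of retained cells in 4T1P (192 cells) and 17.6% in 4T1M (609 cells), with median depths of 2623 and 2436 UMIs. Il1a stood there at 1330 CPM (1252 to 1412) in 4T1P and 2917 CPM (2844 to 2992) in 4T1M, above its level in neutrophils in both libraries and above macrophages in 4T1M. Il1b stood at 5963 and 8546 CPM, Il1rn at 1074 and 1800 CPM and Il1r2 at 374 and 458 CPM, so all 4 were higher in 4T1M. Of the markers in neither gate, the neutrophil receptor genes Csf3r and Cxcr2 stood at 256 and 83.0 CPM in 4T1P and at 452 and 120 CPM in 4T1M, and Ly6g at 11.1 and 14.0 CPM. The monocyte gene Ccr2, also in neither gate, stood at 194 and 127 CPM, against 6.39 and 22.3 CPM in neutrophils. With gate genes included, the 10 neutrophil markers summed to 5679 and 7450 CPM and the 13 macrophage and monocyte markers to 2108 and 1595 CPM. The 7 tumor or stromal markers summed to 274 and 340 CPM. The class of these cells is not named here. Their ratio of agonists to Il1rn, 6.79 (6.32 to 7.30) in 4T1P and 6.37 (6.15 to 6.60) in 4T1M, overlapped between the libraries and was lower than in neutrophils and macrophages in each.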

How the data were processed

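Per the labels, reads were processed with Cell Ranger 4.0.0 on mm10, whereas the methods name a later release; the deposited files hold raw UMI counts per gene and barcode, and the chemistry, the read end and the strand setting are not given in the sources used here. Barcodes with 500 to 5000 genes and at most 10% mitochondrial UMIs were retained (1221 of the 4T1P and 1543 of the 4T1M barcodes were left out). Deposited depth was 21855657 UMIs in 4T1P and 24303957 in 4T1M, of which neutrophils held 2502947 and 6580005 and macrophages 8767210 and 9343315. UMI sums per class were divided by the class total (CPM). Intervals were exact Poisson (levels), Clopper-Pearson (shares) or conditional binomial (ratios). The interval of the log2 ratio between the libraries' agonist ratios was a normal approximation. Called genes differed at least 1.5-fold, after adding 0.5 UMI, among genes with 10 or more UMIs in both compared groups together. Lymphocytes had 3 or more T, NK or B cell marker UMIs and low values of both marker sums. Cells were thinned with a fixed seed. Likely doublets were kept in the main results, where the automatic threshold of Scrublet (scanpy 1.11.5) marked 1 and 0 barcodes. That threshold does not show that doublets were absent. In an alternative, the 69 and 200 barcodes of highest score, set by an assumed loading rate, were removed, 42 and 132 of them retained cells. The interval procedure was tested on simulated counts for the 9994 genes of the neutrophil comparison, where 96.2% of intervals held the true ratio, and the 12352 of the macrophage comparison, where 95.8% did. These counts were Poisson draws without spread between cells, which is what the intervals assume. The simulation thus checks the calculation only, and cannot show the coverage for real cells. The named genes were the 7 members, the 3 genes most like each of 4 members, and a fixed pathway list. The members, gates and lists were chosen with earlier results of these data known. RefSeq gave 250 promoter bases for each start, from the C57BL/6J reference rather than BALB/c, and the older symbols of the IL-36 genes. Scaling by edgeR and DESeq2 factors was tried as an alternative.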

Additional observations from a re-analysis of the deposited data

Results flagged for a closer look

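Il1r2 had a log2 ratio of -0.088 in neutrophils and 0.88 in macrophages for the same contrast of 4T1M over 4T1P. It was singled out because the classes moved in opposite directions. With 1 library per condition the difference was not tested.

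The barcodes left out by the filters on detected genes and mitochondrial UMIs entered no comparison of the report, and all 7 genes had UMIs there. In 4T1P they stood at 727 CPM for Il1a, 2187 CPM for Il1b, 262 CPM for Il1rn, 11.5 CPM for Il1r1, 88.4 CPM for Il1r2, 26.7 CPM for Il1rap and 14.1 CPM for Il18. In 4T1M they stood at 928 CPM for Il1a, 3776 CPM for Il1b, 503 CPM for Il1rn, 4.00 CPM for Il1r1, 221 CPM for Il1r2, 52.6 CPM for Il1rap and 19.0 CPM for Il18. Each lay above the level that 3 UMIs give. Il1r1 had 102 UMIs in 37 of the 1221 left-out barcodes of 4T1P, against 18 UMIs in all 1726 retained cells of that library.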

How the results depend on the processing

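Il1a in neutrophils kept a log2 ratio of 1.26 to 1.33 over 9 alternatives, and Il1r2 in macrophages one of 0.68 to 1.23. Il1rn in macrophages (0.52 to 0.68) passed 1.5-fold in 6 of 9. Il1b in neutrophils reversed to -0.076 when every cell was weighted equally, and in macrophages Il18 ran from -0.04 (stricter gates) to 0.62, past 1.5-fold (cells weighted equally), and Il1rap from 0.06 to 1.03 under the same settings. The agonist to antagonist ratio was lower in 4T1M in neutrophils and macrophages under every gate and filter tried, but its size moved. In neutrophils it was 10.8 in 4T1P and 9.08 in 4T1M under stricter gates, 8.98 and 7.78 under a wider neutrophil gate added after seeing the data, and 9.45 and 7.83 with cells weighted equally. With Il1r2 added it was 5.25 in 4T1M under stricter gates, 4.99 in both libraries under the wider gate and 4.97 in 4T1M with cells weighted equally. In macrophages it was 15.6 in 4T1P (13.3 with Il1r2) at 5% mitochondrial UMIs, 12.4 in 4T1M (10.4) without an upper gene limit, 13.7 in 4T1P and, with Il1r2, 10.4 in 4T1M under stricter gates, and 13.7 and 11.2 (12.02 and 9.40) with cells weighted equally. Members called higher in macrophages fell from 3 to 1 at 5% mitochondrial UMIs, and 1 was lower without the upper limit, where 1754 genes were lower. Pathway genes called lower in neutrophils went from 0 to 1 at 5% mitochondrial UMIs, under stricter or wider gates and without likely doublets, and to 2 with no minimum of UMIs. In macrophages they went from 1 to 2 at 5%, and those called higher from 3 to 5 with no minimum and to 1 with at least 50 UMIs. With no minimum 2755 genes were called higher and 3393 lower in neutrophils and 3023 and 3077 in macrophages, and with at least 50 UMIs 602 and 210, and 389 and 400. The numbers of genes tested under these settings are not given here, so these counts form no shares over all genes. For the 5% limit, the stricter and wider gates and the doublet removal, the counts over all genes are not given either. A change in a count of members or pathway genes is thus not read as particular to them. The causes of these changes were not tested. TMM or DESeq2 factors shifted all log2 ratios by -0.04 and -0.05 in neutrophils and by 0.03 in macrophages. In neutrophils the pathway genes Peli1 and Il1f9 lay closer to the 1.5-fold threshold than this shift. Leaving out a replicate could not be done, and no paired analysis was possible because each condition had 1 library. Depth limits Il1r1, Il18 and Il1rap most, and neither protein nor cleavage was measured.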
